A study of Penicillium oxalicum with 9 samples.

Results

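The comparison of the deletion strains dPoflbC and dPoClrC of the filamentous fungus Penicillium oxalicum on cellulose covered all 9786 genes listed in the deposited table, in 3 RNA sequencing libraries of each strain. The genes were not chosen by any measured value. A gene was tested if it had enough reads in the 9 libraries of the series, which left 8681 of 9786 genes. The labels describe dPoflbC as a deletion of PoflbC and dPoClrC as a deletion of PoClrC, each with biological triplicates, and a further strain, dCA, as a deletion of CA. All 9 libraries came from mycelia that had been precultured in Vogel's medium with 2% glucose for 22 h, held without carbon for 2 h and then kept on 2% (wt/vol) cellulose for 4 h, at 30 °C and 200 rpm. Every culture therefore carried a deletion. The dCA libraries were part of the same fit, so they bear on the filter, the scaling and the p-values. Beyond that, dCA is given only as levels beside those of the compared strains. The labels do not say whether each deletion strain was 1 clone or several, nor which parent each was made from. The p-values measure the spread between these libraries.

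Fungi that grow on plant material secrete cellulases, hemicellulases and amylases, which cut polymers outside the cell, and take up the released sugars through transporters. Transcription factors such as XlnR and ClrB switch these genes on, and CreA switches many of them off when glucose is present. In Aspergillus nidulans, FlbC and FlbD act upstream of BrlA, the zinc finger factor that starts the formation of asexual spores (conidia).

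The 6 libraries held 6.74 to 7.76 M reads in genes (M reads are reads in units of 1e+06). A floor of 3 reads corresponds to 0.387 to 0.445 reads per M in single libraries of these strains. Correlations across genes of log2 levels were 0.988 to 0.992 between the dPoflbC libraries and 0.984 to 0.991 between the dPoClrC libraries, and between strains they were 0.825 to 0.868. Replicate 1 of dPoClrC stood apart from the other libraries of its strain in the hemicellulase genes, as described with them. Among the dCA libraries, replicate 2 correlated at 0.960 with replicate 1 and 0.970 with replicate 3, beside 0.989 between replicates 1 and 3. Only 39.96% of the genes tested have an informative description or KEGG orthologue name, and 617 of the 1965 genes called below (31.4%) have one.

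At an adjusted p under 0.05 and an absolute log2 fold change of at least 1, 786 genes were higher in dPoflbC than in dPoClrC (9.05% of those tested) and 1179 were lower (13.6%), 22.6% together. These are edgeR quasi-likelihood tests with Benjamini-Hochberg adjustment over the 8681 genes, and every adjusted p given below is from that fit. The large differences were mostly on the lower side, with 213 genes at a log2 fold change of -3 or less and 89 at 3 or more. The median over all genes tested was 0.01. With no threshold of fold, 57.1% of the genes passed an adjusted p under 0.05, and in 69.6% the scaled levels of the strains did not overlap. Without the scaling between libraries (trimmed mean of M-values, TMM), every fold change moved up by about 0.28 on the log2 scale, and the calls became 1289 higher and 876 lower. The share of higher genes among the called was 40.0% with TMM, 50.6% with upper-quartile scaling and 59.5% with no scaling. RPKM, which scales reads to coding length (per kilobase) and to library total (per M reads), carries no such scaling, so ratios of RPKM run above the fitted fold changes by about that amount. Most statements on overlap below are on RPKM, so the 69.6% above, on scaled levels, is not their exact background. A share over all genes is not given for RPKM. Of the 1965 called genes, 1934 had RPKM that did not overlap in the called direction.

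**Figure D1:**
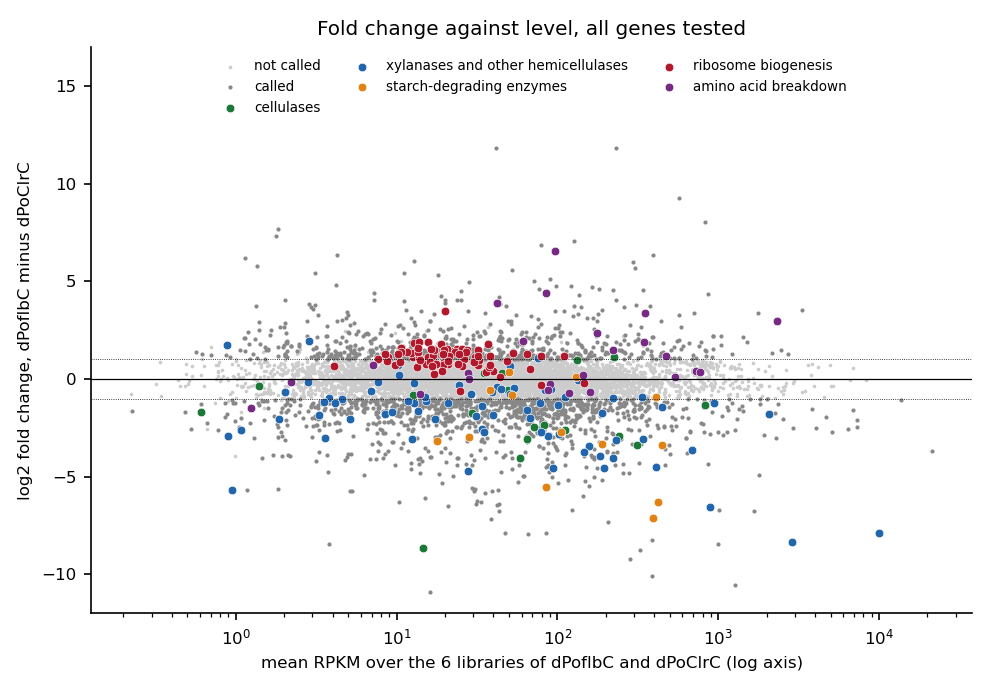
Log2 fold change of dPoflbC minus dPoClrC (vertical axis) against the mean RPKM over the 6 libraries (horizontal, log axis) for the 8681 genes tested, 1 point a gene, with 5 gene lists in colour. Cellulases, hemicellulases and starch-degrading enzymes lie mostly below 0, ribosome biogenesis genes form a band at a median of 1.12, and some amino acid breakdown genes lie above 2.

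The deposited descriptions name neither PoflbC nor PoClrC, so the deletions could not be checked by gene name. Genes with 3 reads or fewer over the libraries of 1 of the compared strains, and a mean of 10 RPKM or more in each of the other 2 strains, are given here as measurements. PDE_08372, described as a hypothetical protein, had 0 reads in the 3 dPoflbC libraries and 179, 239 and 282 reads in those of dPoClrC. Against a floor of 3 reads over the strain, it was at least 250-fold lower in dPoflbC. The gene PDE_09023, also a hypothetical protein, had 506, 523 and 651 reads in dPoflbC and 0 in each dPoClrC library, at least 523-fold lower in dPoClrC. The remaining gene was the cellulose monooxygenase Cel61A (PDE_05633), an enzyme that cleaves cellulose by oxidation, with 0, 1 and 0 reads in dPoflbC and 34, 182 and 237 in dPoClrC. Its ratio of reads per M was 485 (95% exact binomial interval 86.6 to 19206, which covers counting error only). In dCA, the same 3 genes had means of 20.6, 128 and 27.4 RPKM.

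Of the 6 listed regulators of cell wall enzymes and carbon use, 1 was lower in dPoflbC, 0 were higher and 5 were not called. The called share was 16.7%, beside 22.6% over all genes. The activator XlnR (PDE_07674) had 20.6, 18.4 and 19.5 RPKM in dPoflbC and 37.9, 30.6 and 36.7 in dPoClrC, so the strains did not overlap. The fitted log2 fold change was -1.12 (standard error, SE, 0.13, edgeR adjusted p 4.24e-05), but it missed the fold threshold with no scaling (-0.85), with upper-quartile scaling (-0.97) and with limma on log2(RPKM + 1) (-0.81). The activator ClrB (PDE_05999) had 60.8, 68.4 and 81.0 RPKM in dPoflbC and 87.0, 74.7 and 88.2 in dPoClrC, ranges that overlapped. On the scaled levels, every dPoflbC library was below every dPoClrC library for this gene. Its log2 fold change was -0.52 (SE 0.17, edgeR adjusted p 0.0240), under the threshold of size. The repressor CreA (PDE_03168) had a log2 fold change of -0.08, which turned positive with no scaling (0.19). The GAL4-like regulator PDE_01826 had a log2 fold change of -0.70, under the threshold of size. AceA (PDE_01988), a repressor of cellulase genes in Trichoderma reesei, was at -0.03 and HAC1 (PDE_01436), the factor of the unfolded protein response, at -0.24, and both turned positive with no scaling (0.24 and 0.031).

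In bulk RNA, fewer cells of a kind and less RNA per cell cannot be told apart, which bears on genes of spore formation. Among conidiation genes, 3 of the 5 listed had enough reads to be tested, and 2 were higher and 1 lower in dPoflbC. BrlA (PDE_00087) had 72.1, 70.8 and 82.3 RPKM in dPoflbC, against 10.8, 14.7 and 14.5 in dPoClrC and a mean of 3.66 in dCA. FlbD (PDE_03008), a Myb-like factor, had 213, 229 and 212 RPKM in dPoflbC, against 45.9, 48.4 and 55.3 in dPoClrC and a mean of 53.1 in dCA. All dPoflbC libraries were above all others for both genes, with log2 fold changes of 2.21 (SE 0.21, edgeR adjusted p 1.37e-05) and 1.85 (SE 0.11, edgeR adjusted p 9.18e-07). Scytalone dehydratase PDE_04496, an enzyme of melanin synthesis, went the other way, with 148, 185 and 200 RPKM in dPoflbC and 286, 518 and 466 in dPoClrC. The difference was -1.53 on the log2 scale (edgeR adjusted p 0.00616), a call lost with limma on log2(RPKM + 1). The other listed BrlA (PDE_00079) was at a mean of 1.10 RPKM in dPoflbC and 1.27 in dPoClrC and was not tested, as was the other scytalone dehydratase.

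**Figure D2:**
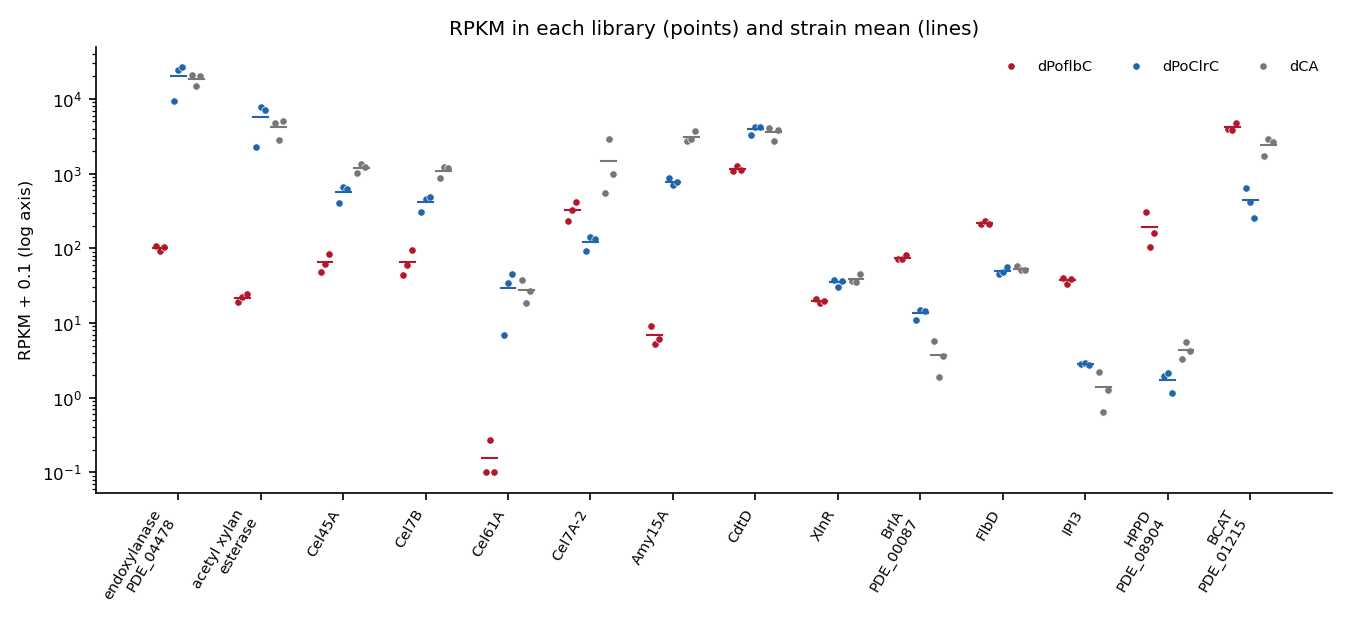
RPKM + 0.1 (log axis) of 14 named genes in each library of dPoflbC (red), dPoClrC (blue) and dCA (grey), with points in replicate order and lines at the strain means. The endoxylanase PDE_04478 has 92.4 to 106 RPKM in dPoflbC and 9405 to 26560 in dPoClrC, and BrlA, FlbD, IPI3 and the dioxygenase PDE_08904 (HPPD) are above both other strains in every dPoflbC library. BCAT stands for a branched-chain amino acid aminotransferase.

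Cellulases were lower in dPoflbC than in dPoClrC in 10 of the 18 genes tested and higher in 0. The median log2 fold change was -1.71, beside 0.01 over all genes, and 55.6% were called, beside 22.6%. The 0 higher genes are from edgeR. DESeq2 also called 0, while 2 had an unadjusted p under 0.05 in that direction, 2 were called with no scaling, and 1 without dCA replicate 1, dCA replicate 2, dPoClrC replicate 1 or dPoflbC replicate 2. Their summed level was 1305, 1519 and 1608 RPKM in dPoflbC and 2500, 3382 and 3618 in dPoClrC, so every dPoflbC library was below every dPoClrC library. In dCA it was 4983 to 8894 RPKM. By type, 6 of 11 endo-beta-1,4-glucanases, which cut within cellulose chains, 3 of 4 cellulose monooxygenases and 1 of 3 cellobiohydrolases, which work from chain ends, were lower.

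The endoglucanase Cel45A (PDE_07928) had 48.7, 62.3 and 84.6 RPKM in dPoflbC and 407, 666 and 617 in dPoClrC, a log2 fold change of -3.39 (SE 0.31, edgeR adjusted p 1.09e-05). Cel7B (PDE_07929), with the adjacent locus number, had 43.8, 60.1 and 95.4 RPKM against 311, 453 and 490, a log2 fold change of -2.93 (SE 0.35). Neither gene overlapped between the strains. A putative cellulose monooxygenase, PDE_01261, had 5.23, 8.45 and 10.2 RPKM against 77.0, 106 and 146 (log2 fold change -4.06, SE 0.28). The endoglucanases PDE_09226 and Cel5A (PDE_00507) had log2 fold changes of -3.05 (SE 0.41) and -2.60 (SE 0.38). The most highly expressed of the list, the putative endoglucanase PDE_09267, was lower by less, with means of 545 RPKM ± 66.1 (SD, n = 3) in dPoflbC and 1117 ± 237 (SD, n = 3) in dPoClrC.

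The 3 cellobiohydrolases ran from -1.74 to 1.14 on the log2 scale, with a median of -0.34. Cel6A (PDE_07124) had 10.2, 17.7 and 19.2 RPKM in dPoflbC, 35.9, 40.3 and 53.8 in dPoClrC and a mean of 340 in dCA. Its log2 fold change was -1.74 (SE 0.53, edgeR adjusted p 0.0170), and the call was lost without dPoflbC replicate 1 (adjusted p 0.0660) or without dPoClrC replicate 3 (adjusted p 0.0554). Cel7A-2 (PDE_07945) had 233, 326 and 422 RPKM in dPoflbC and 91.0, 143 and 133 in dPoClrC, again without overlap but with dPoflbC above. Its log2 fold change was 1.14 (SE 0.59) at an edgeR adjusted p of 0.123, so it was not called, and in dCA its libraries ran from 558 to 2935 RPKM. With the 6 libraries alone in the fit, the same log2 fold change of 1.15 had an edgeR adjusted p of 0.00239, and it was also called without dCA replicate 1 (adjusted p 0.0462) or without dCA replicate 2 (adjusted p 0.00464). Whether Cel6A and Cel7A-2 differ in their response was not tested as a difference between genes. The endoglucanase PDE_03711 was also above in dPoflbC, with 196, 180 and 186 RPKM against 102, 66.1 and 69.1, but at a log2 fold change of 0.97 it was not called.

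Xylanases and other hemicellulases, which break down xylan, mannan, arabinan and related polymers, showed the most lower genes of any list. In dPoflbC, 49 of the 76 tested were lower and 2 were higher (4 without dCA replicate 2), with a median log2 fold change of -1.40. The called share was 67.1%, beside 22.6% over all genes. Summed over the list, the level was 4247, 4941 and 4324 RPKM in dPoflbC, against 23154, 47744 and 50918 in dPoClrC. Replicate 1 of dPoClrC was thus below each of the other dPoClrC libraries, yet far above dPoflbC, and without it 50 genes were lower with a median of -1.45. With limma on log2(RPKM + 5), a test that understates low genes, 28 were lower.

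Enzymes for the xylan backbone and its side groups made up most of these calls. Lower were 7 of 9 endo-beta-1,4-xylanases, 6 of 7 beta-xylosidases, 11 of 16 alpha-L-arabinofuranosidases, 6 of 7 acetyl xylan and feruloyl esterases and 4 of 5 glucuronidases. The endoxylanase PDE_04478 had 106, 92.4 and 106 RPKM in dPoflbC and 9405, 24041 and 26560 in dPoClrC. This was a log2 fold change of -7.91 (SE 0.46, edgeR adjusted p 6.21e-07), and -8.26 without dPoClrC replicate 1. The acetyl xylan esterase PDE_04182, which removes acetyl groups from xylan, had 19.1, 21.9 and 24.1 RPKM against 2290, 7817 and 7123. There the log2 fold change was -8.33 (SE 0.53, edgeR adjusted p 1.06e-06), and -8.72 without dPoClrC replicate 1. For the feruloyl esterase PDE_06649, which releases ferulic acid from arabinoxylan, means were 22.8 RPKM ± 5.38 and 1746 ± 484 (SD, n = 3 each). None of these genes overlapped between the strains, and their means were 18676, 4186 and 1607 RPKM in dCA, beside 20002, 5743 and 1746 in dPoClrC.

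Not every abundant xylan enzyme changed by so much. The endoxylanase PDE_08094 had 897, 1315 and 1012 RPKM in dPoflbC and 2590, 3184 and 3339 in dPoClrC, a log2 fold change of -1.78 (SE 0.27). The beta-xylosidase PDE_06306, which splits short xylan fragments to xylose, had 640, 738 and 569 RPKM against 887, 1253 and 1571. Its log2 fold change of -1.21 missed the threshold with no scaling (-0.93) and with limma. The arabinofuranosidase PDE_06067, which removes arabinose side chains, had a log2 fold change of -3.65 (SE 0.21), and the arabinanase PDE_08038 one of -4.52 (SE 0.27). Of 16 mannan enzymes 6 were lower, where 13.6% of all genes tested were, led by the mannanase PDE_06023 at -3.72. The beta-glucuronidase PDE_02801 was 1 of the 2 higher genes, with 96.0, 115 and 116 RPKM against 47.7, 39.6 and 39.1. The putative swollenin PDE_02102, a wall-loosening protein outside the list and chosen after its values were seen, had 23.4, 22.6 and 24.7 RPKM against 259, 694 and 654. This was a log2 fold change of -4.79 (SE 0.40, edgeR adjusted p 6.09e-06).

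Enzymes for other polymers showed smaller groups of lower genes. Of 11 beta-glucosidases, which split cellobiose to glucose, 4 were lower and 0 higher (median -0.75). The called share was 36.4%, beside 22.6% over all genes. DESeq2 also called 0 higher, and 0 had an unadjusted p under 0.05 in that direction. BGL2 (PDE_00579) had 157, 182 and 233 RPKM in dPoflbC and 373, 417 and 571 in dPoClrC, a log2 fold change of -1.52 (SE 0.24, edgeR adjusted p 0.000369). Pectinases were lower in 10 of 24 genes and higher in 1 (45.8% called, median -0.78). With limma on log2(RPKM + 5), 4 were lower. The pectate lyase PDE_06068 was at -3.90 (SE 0.25). The higher gene was the rhamnogalacturonan rhamnohydrolase PDE_09285, with 74.3, 99.7 and 110 RPKM against 22.2, 20.3 and 21.6.

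Starch-degrading enzymes, whose substrate was not in the medium named in the labels, were lower in 8 of 13 genes and higher in 0. The median was -2.99, and 61.5% were called, beside 22.6% over all genes. DESeq2 called 0 higher, and 1 had an unadjusted p under 0.05 in that direction. Glucoamylase Amy15A (PDE_09417), an enzyme that frees glucose at chain ends, had 9.00, 5.20 and 6.02 RPKM in dPoflbC and 865, 697 and 778 in dPoClrC. The log2 fold change was -7.13 (SE 0.30, edgeR adjusted p 1.27e-07). A protein with starch and chitin binding domains, PDE_01354, had 13.3, 12.7 and 11.9 RPKM against 694, 850 and 942 (-6.32, SE 0.21). The alpha-amylase Amy13A (PDE_01201) had 2.61, 4.59 and 5.42 RPKM against 24.6, 34.1 and 35.3 (-3.17, SE 0.42). None of these 3 genes overlapped between the strains. In dCA their means were 3116, 2943 and 564 RPKM, above both compared strains.

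**Figure D3:**
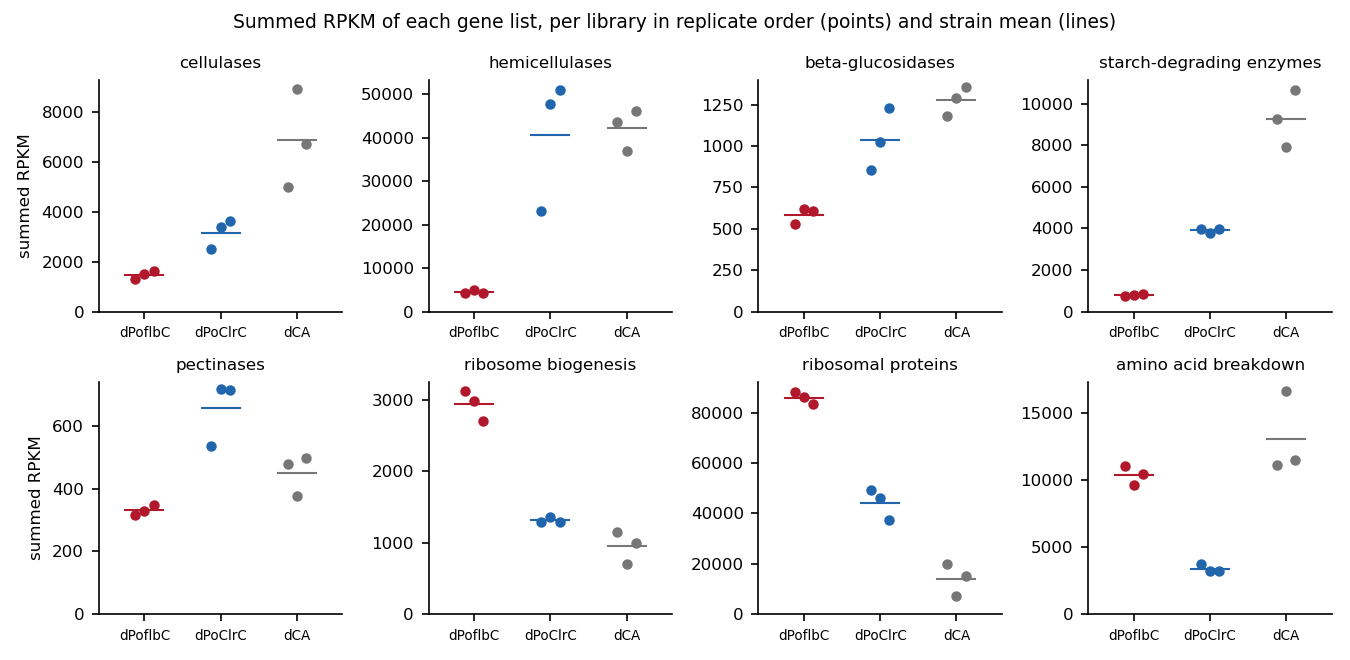
Summed RPKM of 8 gene lists (vertical axes start at 0) in each library of dPoflbC (red), dPoClrC (blue) and dCA (grey), with points in replicate order and lines at the means. The 5 polymer-degrading lists are lower in every dPoflbC library than in every dPoClrC library, and the ribosome and amino acid breakdown lists are higher. The low hemicellulase point of dPoClrC is replicate 1, at 23154 RPKM.

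Sugar transporters fell on both sides, with 5 of 14 lower and 2 higher. The called share was 50%, beside 22.6% over all genes. The cellodextrin transporters, which carry short glucose chains from cellulose, were lower. CdtD (PDE_00753) had 1073, 1273 and 1125 RPKM in dPoflbC and 3274, 4226 and 4261 in dPoClrC, a log2 fold change of -2.04 (SE 0.19, edgeR adjusted p 1.36e-05). CdtC (PDE_00607) had 534, 695 and 890 RPKM against 1426, 1602 and 1643, a log2 fold change of -1.41 (SE 0.21). A transporter of the general alpha-glucoside type, PDE_04150, was at -3.08 (SE 0.17). The higher genes were the sugar symporters PDE_00197 (20.3, 8.27 and 5.57 RPKM against a mean of 1.79) and PDE_03140 (12.4, 9.58 and 8.17 against 1.41, 1.53 and 1.54). Their dCA means were 0.751 and 0.502 RPKM, and no dPoflbC library overlapped with another strain.

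The lists for the fungus's own wall had called shares below the 22.6% over all genes, 18.2% for breakdown and 12% for synthesis. Of 44 genes for breaking down or remodelling chitin and beta-1,3-glucan, 7 were lower and 1 higher (2 without dCA replicate 2 or dPoflbC replicate 3), with a median of -0.28. The beta-1,3-glucanase PDE_03291 had 43.6, 51.3 and 37.9 RPKM in dPoflbC and 915, 768 and 657 in dPoClrC (log2 fold change -4.42, SE 0.23). The higher gene, the chitinase PDE_04326, had 265, 313 and 316 RPKM against 36.3, 49.8 and 39.8 (2.55, SE 0.24, edgeR adjusted p 1.18e-05). A putative chitinase, PDE_08122, was lower by contrast, at -2.80 (SE 0.25). Among 50 genes of the list for cell wall synthesis, 3 were higher (7 with no scaling) and 3 lower, and the chitin synthase PDE_05710 was at -2.50 (SE 0.16). That list was made by words and also holds mannosyltransferases, some of them dolichyl-phosphate mannosyltransferases, so it is wider than synthesis of wall polymers.

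Genes that process ribosomal RNA and assemble ribosomes were higher in dPoflbC. Of the 80 tested, 45 were higher and 0 lower (56.2% called, beside 9.05% higher over all genes), with a median log2 fold change of 1.12. DESeq2 called 47 higher and 0 lower, and 2 had an unadjusted p under 0.05 on the lower side. Their summed level was 3124, 2985 and 2704 RPKM in dPoflbC, 1283, 1360 and 1294 in dPoClrC and 701 to 1151 in dCA. The calls included 13 of 22 proteins of the U3 small nucleolar particle, which cuts the precursor RNA, 10 of 12 nucleolar proteins and 3 of 6 RNA polymerase I subunits. The 22 U3-associated genes ran from 0.63 to 1.88 on the log2 scale.

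The pre-rRNA-processing protein IPI3 (PDE_01999) lay apart from the rest of that list, with 40.4, 33.3 and 38.8 RPKM in dPoflbC, 2.75, 2.81 and 2.66 in dPoClrC and 0.548 to 2.14 in dCA. Its log2 fold change was 3.49 (SE 0.22, edgeR adjusted p 9.16e-07). Nucleolar protein 56 (PDE_04970), the most abundant of the called members and a core part of the particles that guide RNA methylation, had 164, 171 and 151 RPKM against 63.2, 61.7 and 53.9 (1.16, SE 0.29, edgeR adjusted p 0.00589). The assembly factor NSA2 (PDE_01976) had 130, 114 and 102 RPKM against 43.8, 41.0 and 43.6 (1.15, SE 0.10). The most abundant gene of the whole list, ribosome assembly protein 1 (PDE_07323), was not called, with 151, 160 and 139 RPKM against 128, 168 and 130. For the 3 called genes no dPoflbC library was as low as any dPoClrC library.

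The count of called ribosomal proteins depended on the scaling. With eukaryotic-type names, 4 of 79 were higher (5.06%, beside 9.05% over all genes) and 0 lower, with a median of 0.77. The higher count was 45 with no scaling and 23 with upper-quartile scaling. The count was 12 without dPoClrC replicate 1 and 2 without dPoClrC replicate 3. DESeq2 called 4 higher and 0 lower, and 65 had an unadjusted p under 0.05 on the higher side and 1 on the lower. Summed RPKM was 88145, 86305 and 83560 in dPoflbC, 49453, 46150 and 37280 in dPoClrC and 7079 to 19867 in dCA. The L34e protein PDE_05253 had 1075, 982 and 1064 RPKM against 455, 400 and 362, with a log2 fold change of 1.08 (SE 0.29, edgeR adjusted p 0.00983). Ribosomal proteins with other names, some possibly mitochondrial, were higher in 2 of 43 (16 with no scaling, 0 without dPoClrC replicate 2) and lower in 0. The called share was 4.65%, also below the 9.05% higher over all genes. DESeq2 called 2 higher and 0 lower, and 0 had an unadjusted p under 0.05 on the lower side.

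Translation factors and tRNA synthetases were higher in 6 of 89 genes (14 with no scaling) and lower in 1, a share below that over all genes. Elongation factor 3 (PDE_09257), a fungal factor that acts at the ribosome's exit site, had 938, 1026 and 937 RPKM in dPoflbC and 281, 223 and 245 in dPoClrC (1.68, SE 0.19, edgeR adjusted p 4.71e-05). Elongation factor 1-beta (PDE_00623) had a log2 fold change of 1.23 (SE 0.20). The lower gene was annotated as elongation factor 1-alpha (PDE_09012), with 48.2, 49.3 and 44.6 RPKM against 191, 343 and 347 (-2.91, SE 0.24). A far more abundant gene of the same annotation, PDE_02596, had 4247, 4470 and 4423 RPKM against 3303, 2948 and 3120. At a log2 fold change of 0.21 (SE 0.24, edgeR adjusted p 0.464) it was not called.

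**Figure D4:**
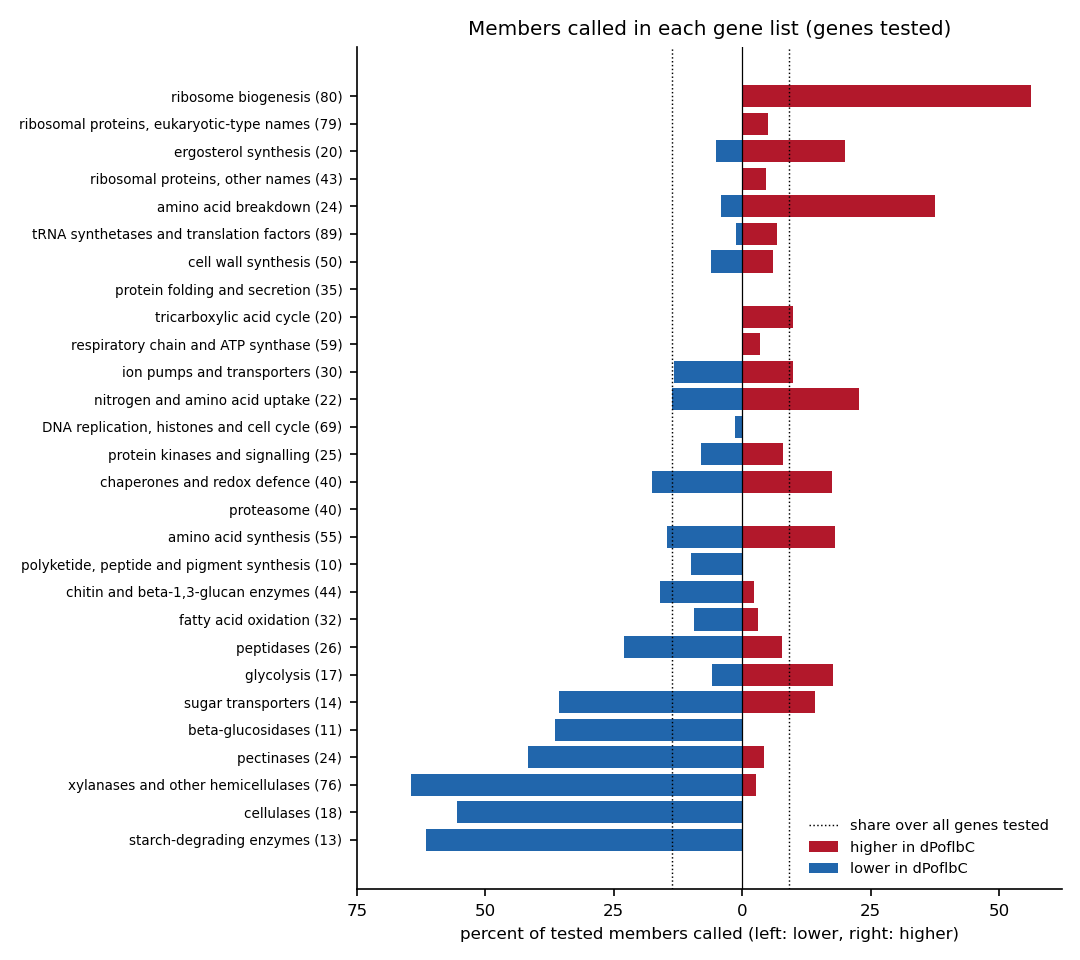
Percent of the tested members of each gene list called lower (blue, to the left) and higher (red, to the right) in dPoflbC, for lists with at least 10 genes tested (number in brackets), ordered by median log2 fold change. Dotted lines mark 13.6% lower and 9.05% higher over all genes. Starch-degrading enzymes, cellulases and hemicellulases pass the lower line by most, and ribosome biogenesis and amino acid breakdown the higher line.

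Amino acid breakdown was higher in 9 of 24 genes and lower in 1 in dPoflbC (median 0.39). The called share was 41.7%, beside 22.6% over all genes. The lower call was lost with no scaling (10 higher) and without dPoClrC replicate 2 or 3 or dPoflbC replicate 1 or 3. Summed RPKM was 11063, 9643 and 10467 in dPoflbC, 3727, 3216 and 3188 in dPoClrC and 11161 to 16654 in dCA. The strain dPoClrC thus stood apart in this sum, though not in every member given below. A large part of the sum was 1 gene, PDE_01215, with means of 4177 RPKM in dPoflbC, 439 in dPoClrC and 2448 in dCA. Of 4 branched-chain amino acid aminotransferases tested, which convert leucine, isoleucine and valine to their keto acids and back, 3 were higher. PDE_01215 had 4015, 3812 and 4705 RPKM against 640, 422 and 256, a log2 fold change of 2.98 (SE 0.37, edgeR adjusted p 8.83e-05). PDE_03805 had 193, 119 and 181 RPKM against 6.84, 5.27 and 6.87 (4.42, SE 0.44, edgeR adjusted p 1.81e-05). For both genes the strains did not overlap, and PDE_03805 was also low in dCA, at a mean of 11.2 RPKM, while PDE_01215 was at 2448. Isovaleryl-CoA dehydrogenase (PDE_09757), a step of leucine breakdown, was at 2.36 (SE 0.60, edgeR adjusted p 0.00682), and arginase (PDE_04772), which splits arginine, at 1.97 (SE 0.29).

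Tyrosine breakdown enzymes with neighbouring locus numbers were measured together. The 4-hydroxyphenylpyruvate dioxygenase PDE_08904, which makes homogentisate, had 310, 104 and 159 RPKM in dPoflbC, 1.85, 2.02 and 1.07 in dPoClrC and 3.19 to 5.49 in dCA. The log2 fold change was 6.56 (SE 0.50, edgeR adjusted p 3.22e-06). Homogentisate 1,2-dioxygenase (PDE_08906), the next step, had 475, 367 and 185 RPKM against 106, 91.2 and 108, and with an edgeR adjusted p of 0.0722 was not called. Maleylacetoacetate isomerase (PDE_08908) had 112, 74.4 and 54.7 RPKM against 4.58, 3.57 and 5.28 (3.88, SE 0.86, edgeR adjusted p 0.00337). Fumarylacetoacetase (PDE_08907), the last step, was at 1.88 (SE 0.67, edgeR adjusted p 0.0353), a call that 5 of the 9 fits with 1 library left out did not give. In all 4 genes every dPoflbC library was above every dPoClrC library. Kynureninase (PDE_02455), of tryptophan breakdown, was at 1.16 (SE 0.21), and indoleamine 2,3-dioxygenase (PDE_05907), an earlier step of the same route, had 438, 240 and 274 RPKM against 14.5, 9.02 and 6.37 (4.72, SE 0.83).

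Amino acid synthesis was mixed, with 10 of 55 genes higher and 8 lower, beside 9.05% higher and 13.6% lower over all genes. Its median of -0.13 turned to 0.15 with no scaling. Glutamine synthetase (PDE_08346), which fixes ammonium, had 765, 728 and 809 RPKM in dPoflbC and 322, 281 and 292 in dPoClrC (1.09, SE 0.12). Ketol-acid reductoisomerase (PDE_02091), of branched-chain amino acid synthesis, was at 1.29 (SE 0.16). The gene annotated as 3-dehydroquinate synthase, PDE_00008, had 6.86, 6.68 and 7.64 RPKM against 1547, 2275 and 2178, with 20.9 to 242 in dCA. The fitted difference was -8.42 on the log2 scale (SE 0.76, edgeR adjusted p 1.03e-05), and it is 1 of 6 genes with consecutive locus numbers, PDE_00007 to PDE_00012, that were all lower. Among them, PDE_00009, annotated as catechol O-methyltransferase, had 0.792, 0.749 and 0.987 RPKM against 710, 845 and 778, at -10.09 (SE 0.67, edgeR adjusted p 1.34e-06).

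Nitrogen and amino acid uptake genes were higher in 5 of 22 and lower in 3 (1 with no scaling). Together 36.4% were called, beside 22.6% over all genes. The amino acid permease PDE_00845 had 1196, 1188 and 1479 RPKM in dPoflbC and 459, 176 and 220 in dPoClrC (1.91, SE 0.44, edgeR adjusted p 0.00414). The oligopeptide transporter PDE_06899 was at 1.52 (SE 0.48, edgeR adjusted p 0.0216), a call lost without dPoflbC replicate 1, dPoClrC replicate 2 or dPoClrC replicate 3. Peptidases were lower in 6 of 26 and higher in 2, 30.8% together. Aspergillopepsin I (PDE_07927), a secreted acid protease, had 23.6, 21.9 and 18.7 RPKM against 281, 581 and 614 (-4.81, SE 0.31, edgeR adjusted p 1.14e-06). Tripeptidyl-peptidase I (PDE_01353) was at -3.72 (SE 0.24).

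Central metabolism was counted in separate lists. Glycolysis had 23.5% of its genes called, beside 22.6% over all genes, with 3 of 17 higher and 1 lower. The lower count was 3 without dPoflbC replicate 3 and 2 without dPoClrC replicate 2. The glycolysis median was -0.48 (-0.21 with no scaling), with 9 genes at an unadjusted p under 0.05 on the lower side and 3 on the higher. The tricarboxylic acid cycle had 2 of 20 higher (4 with no scaling) and 0 lower, and the respiratory chain 2 of 59 higher and 0 lower. Their called shares, 10% and 3.39%, were below the 22.6% over all genes. DESeq2 also called 0 lower in both of these lists, where 5 and 8 genes had an unadjusted p under 0.05 on that side. For the tricarboxylic acid cycle, 1 was lower without dPoClrC replicate 2, dPoClrC replicate 3 or dPoflbC replicate 3. A glyceraldehyde 3-phosphate dehydrogenase (PDE_04588), a glycolytic enzyme, had 1551, 1613 and 1819 RPKM in dPoflbC, 716, 284 and 258 in dPoClrC and 19.4 to 47.7 in dCA. The fitted difference was 1.72 on the log2 scale (SE 0.37, edgeR adjusted p 0.00276), and 2.32 without dPoClrC replicate 1. Fructose-bisphosphate aldolase PDE_04802, also of the glycolysis list, was at -0.64 (SE 0.20, edgeR adjusted p 0.0218) and was not called. ATP synthase subunit c (PDE_07836), part of the rotating ring, had 2338, 2487 and 2400 RPKM against 526, 438 and 394 (2.14, SE 0.27, edgeR adjusted p 9.34e-05). The gene annotated as methylisocitrate lyase, PDE_06062, was the 1 lower gene of 9 (11.1%) in the gluconeogenesis, glyoxylate and propionate list. It had 36.8, 22.6 and 51.3 RPKM against 3311, 3739 and 2861, with 13004 to 29970 in dCA (-6.76, SE 0.52). Fatty acid oxidation had 3 of 32 lower (1 with no scaling) and 1 higher, 12.5% together, below the 22.6% over all genes.

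Ergosterol synthesis, which makes the fungal membrane sterol, had 4 of 20 genes higher (10 with no scaling) and 1 lower, with a median of 0.73. Together 25% were called, beside 22.6% over all genes. The lower call was of a gene under 2 RPKM in both strains and was lost without dPoClrC replicate 3. Delta24(24(1))-sterol reductase PDE_00933, which carries out the last step, had 315, 299 and 359 RPKM in dPoflbC and 86.6, 76.5 and 70.3 in dPoClrC (1.79, SE 0.17, edgeR adjusted p 1.46e-05). Methylsterol monooxygenase PDE_05808 was at 1.29 (SE 0.20). In the iron list, 2 of 5 genes were lower (40%, beside 13.6% lower over all genes). The siderophore-iron transporter PDE_04184 had 15.1, 15.6 and 27.0 RPKM against 179, 153 and 138, with 5.38 to 17.7 in dCA (-3.30, SE 0.33, edgeR adjusted p 1.94e-05). The high-affinity iron transporter PDE_07611 had 22.7, 26.9 and 34.5 RPKM against 148, 196 and 215 (-3.01, SE 0.21).

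Chaperones and redox defence genes were called on both sides, 7 of 40 higher (12 with no scaling) and 7 lower (4). Together 35% were called, beside 22.6% over all genes. The small heat shock protein PDE_00322 had 445, 235 and 237 RPKM in dPoflbC and 34.5, 21.7 and 29.6 in dPoClrC (3.14, SE 0.29, edgeR adjusted p 1.21e-05). The glutathione S-transferase PDE_01194 varied between libraries of 1 strain, with 2132, 2378 and 476 RPKM in dPoflbC, 4.99, 4.18 and 6.10 in dPoClrC and 1667, 50040 and 2537 in dCA. The strains of the comparison still did not overlap, at a log2 fold change of 8.06 (SE 1.57, edgeR adjusted p 0.00152), and the value was 8.49 without dPoflbC replicate 3. Peroxiredoxin PDE_09082, which reduces peroxides, was at -1.38 (SE 0.12), and the catalase PDE_01404 at -1.60 (SE 0.29).

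Protein kinases and signalling genes were higher in 2 of 25 and lower in 2, 16% together beside 22.6% over all genes. A gene annotated as p38 MAP kinase, PDE_05603, had 53.3, 42.4 and 18.4 RPKM in dPoflbC and 2.46, 1.87 and 2.01 in dPoClrC (3.88, SE 0.39, edgeR adjusted p 1.94e-05). Genes of the same annotation went both ways. PDE_02510 was higher, at 1.58 (SE 0.17). The most abundant, PDE_00126, was lower, with 277, 283 and 288 RPKM against 446, 384 and 400. Its log2 fold change of -0.81 (SE 0.15, edgeR adjusted p 0.000941) was under the threshold of size. The MAP kinase phosphatase PDE_07523 had 33.7, 34.7 and 35.3 RPKM against 237, 174 and 205 (-2.84, SE 0.14, edgeR adjusted p 2.84e-07). Ion pumps and transporters were higher in 3 of 30 (6 with no scaling) and lower in 4. Together 23.3% were called, about the 22.6% over all genes. The lower count was 1 with no scaling and also without dPoClrC replicate 3. It was 2 without dPoClrC replicate 2, dPoflbC replicate 1 or dPoflbC replicate 2. The lower calls included PDE_00002 (means of 0.586 RPKM in dPoflbC and 1.13 in dPoClrC) and PDE_04447 (0.261 and 1.06), both at low levels. The sodium-exporting ATPases PDE_03497 (68.0, 72.5 and 108 RPKM against 7.29, 2.41 and 4.68) and PDE_04634 (972, 1045 and 1212 against 287, 200 and 262) were both higher, with log2 fold changes of 3.85 (SE 0.34) and 1.84 (SE 0.21).

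Some lists held almost no called gene. Protein folding and secretion had 0 of 35 higher and 0 lower in edgeR and in DESeq2, with 12 and 2 genes at an unadjusted p under 0.05 on the 2 sides and a median of 0.19. Without dPoClrC replicate 2 or without dPoflbC replicate 3, 1 was lower. The proteasome had 0 of 40 on either side with both tools, with 4 and 4 genes at an unadjusted p under 0.05 and a median of -0.06, and 1 was lower without dPoClrC replicate 1. Thiamine synthesis had 0 of 5 (2 and 1 at an unadjusted p under 0.05), and 1 was higher with no scaling. Of 69 genes for DNA replication, histones and cell cycle, 1 was lower and 0 higher, and DESeq2 gave the same counts. At an unadjusted p under 0.05 there were 16 on the higher side and 21 on the lower. Polyketide, peptide and pigment synthesis had 1 of 10 lower (2 without dPoClrC replicate 1), and 0 higher in edgeR and DESeq2 with 1 at an unadjusted p under 0.05. Its lower gene, PDE_01235, was at low levels, with means of 0.129 RPKM in dPoflbC and 0.326 in dPoClrC. In these lists few genes thus passed both the adjusted p and the fold threshold, which does not show that the strains were alike.

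Called genes also lay beside each other. The table gives no positions, so neighbours here are genes with consecutive locus numbers. The longest run of higher genes was 9, PDE_01212 to PDE_01220, with log2 fold changes from 1.48 to 2.99. It holds the aminotransferase PDE_01215 and both subunits of a fungal fatty acid synthase, which builds fatty acids. The alpha subunit PDE_01217 had 533, 559 and 662 RPKM in dPoflbC, 111, 66.6 and 48.3 in dPoClrC and a mean of 530 in dCA (2.69, SE 0.32, edgeR adjusted p 6.94e-05), and the beta subunit PDE_01220 was at 1.85 (SE 0.26). The arginine synthesis gene PDE_01213 in the same run had the log2 fold change of 2.99 (SE 0.36). Runs of 5 (PDE_01429 to PDE_01433, 1.66 to 3.60) and of 4 genes (PDE_00555 to PDE_00558, 1.28 to 6.37, 1 of 6 higher runs of that length) hold only hypothetical proteins. In the latter, PDE_00558 had 680, 771 and 880 RPKM against 11.6, 8.34 and 3.37.

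The longest run of lower genes was 8, PDE_00802 to PDE_00809, all hypothetical proteins, from -7.18 to -1.79. In it, PDE_00805 had 0.868, 0.547 and 0.451 RPKM in dPoflbC and 39.2, 90.4 and 101 in dPoClrC (SE 0.72, edgeR adjusted p 2.00e-05). Runs of 7 were PDE_05880 to PDE_05886 (-5.19 to -1.10) and PDE_07609 to PDE_07615 (-3.01 to -1.10), and the latter holds the iron transporter PDE_07611. The highly expressed PDE_05881, a hypothetical protein, had 1972, 2273 and 2483 RPKM against 6320, 7438 and 7754. The most changed hemicellulases also lay within runs of lower genes, the endoxylanase PDE_04478 in 1 of 6 genes (PDE_04476 to PDE_04481) and the esterase PDE_04182 in 1 of 5 (PDE_04181 to PDE_04185) that also holds the siderophore-iron transporter PDE_04184. XlnR (PDE_07674) ended a run of 5 lower genes that starts at PDE_07670.

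**Figure D5:**
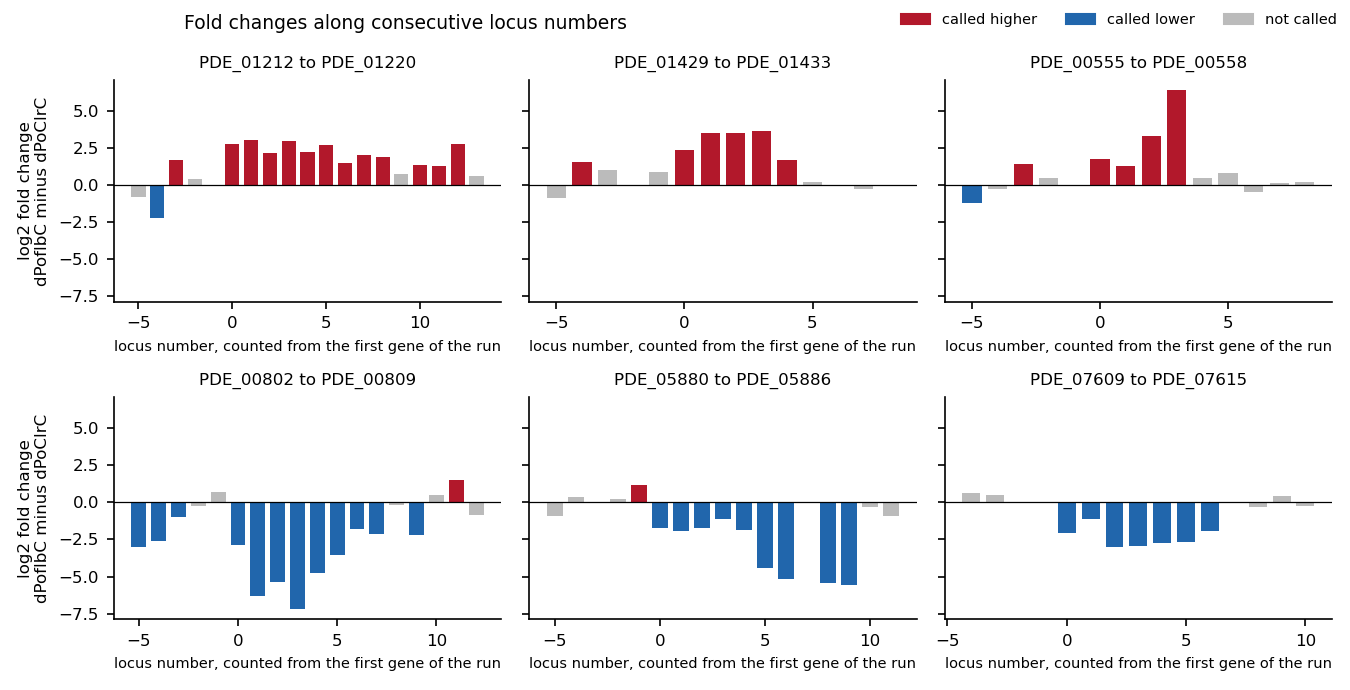
Log2 fold change of dPoflbC minus dPoClrC (vertical axis) along consecutive locus numbers, counted from the first gene of each run, for 3 of the longest runs of genes called higher (upper row, red) and the 3 longest called lower (lower row, blue), with up to 5 locus numbers on either side (grey, not called; gaps were not tested). The higher run of 4 genes is 1 of 6 of that length, taken as the one with the lowest locus number. The run PDE_01212 to PDE_01220 holds 9 higher genes between 1.48 and 2.99, and PDE_00802 to PDE_00809 8 lower genes between -7.18 and -1.79.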

How the data were processed

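The authors deposited 1 table of 9786 genes with a read count per gene and library, and per the file headers these are unique reads. They also deposited RPKM, which equals the deposited reads divided by coding length in kilobases and by M reads in genes. CASAVA 1.8 is named per the submitters' processing notes. Aligner, counting tool, build and annotation source were not given in the sources used here. Without a stated strand setting, overlapping genes cannot be told apart, and near-identical copies may share reads.

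Counts of all 9 libraries were fitted with edgeR 4.0.16 (R 4.3.3, TMM scaling, filterByExpr, quasi-likelihood test, 1 mean per strain, no replicate block), with Benjamini-Hochberg adjustment, an adjusted p under 0.05 and an absolute log2 fold change of at least 1. DESeq2 1.42.0 and limma 3.58.1 were alternatives. The script was tested on simulated data. Genes were sorted into 33 lists by words in their descriptions and KEGG names. The comparison, the lists and the rules for named genes were chosen with earlier results of these data known. Named genes are the regulators and conidiation genes, up to 4 members of each list by level and up to 4 by fold change, the 10 most changed annotated genes in each direction at 10 RPKM or more, genes near 0 in 1 strain, and members of the longest runs (ties by the lowest locus number), within space. PDE_00507, PDE_07124, PDE_03711, PDE_06067, PDE_08038, PDE_06023, PDE_02801, PDE_01201, PDE_09757, PDE_04772, PDE_08906, PDE_08907, PDE_02455, PDE_02091, PDE_09082, PDE_01404 and the runs beyond the 3 longest a direction fall outside that rule and were chosen after their values were seen. A reference table of locus tags matched 0 genes, so positions and sequences are not given here.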

Additional observations from a re-analysis of the deposited data

How the results depend on the processing

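In place of 786 higher and 1179 lower genes, the 9 fits that each left out 1 library gave 739 to 845 higher and 1147 to 1233 lower. Higher genes numbered 1289 with no scaling, 1211 with limma on log2(RPKM + 0.5) and 2395 at adjusted p alone, with no threshold of fold. Lower genes numbered 665 with limma on log2(RPKM + 5) and 2559 at adjusted p alone. With limma on log2(RPKM + 1), upper-quartile scaling, quantile normalization, DESeq2, its size factors in edgeR, other filters or the 6 libraries alone, both counts were within 1.5 times the main ones. A replicate block gave 787 higher and 1179 lower with 9 libraries, and 819 and 1149 with 6. Same-numbered libraries of dPoflbC and dPoClrC correlated at 0.111, 0.0979 and 0.0673 in their deviations from the strain means, not all above 0.1, so the numbers were not taken as pairs, although each library correlated best with its own number. Of the named genes, 4 that were not called changed sign. The settings are limma on log2(RPKM + 0.5), with + 1 and with + 5, quantile normalization and no scaling, in that order. CreA (PDE_03168) went to 0.20, 0.20, 0.20, 0.21 and 0.19, AceA (PDE_01988) to 0.26, 0.25, 0.24, 0.17 and 0.24, HAC1 (PDE_01436) to 0.020, 0.020, 0.020, 0.017 and 0.031, and PDE_07323 to 0.089, 0.088, 0.086, 0.088 and 0.080. With upper-quartile scaling CreA (PDE_03168) was at 0.072 and AceA (PDE_01988) at 0.12, and AceA ran from -0.12 to 0.13 with 1 library left out. No named gene that was called changed sign under any alternative. DESeq2 gave no adjusted p for the glutathione S-transferase PDE_01194. Depth left 1105 genes with too few reads to be tested, and with no filter on low counts 854 genes were higher and 1230 lower.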

Other observations

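The following genes were chosen after their values were seen. PDE_09832, a hypothetical protein with the most reads of any gene in the 6 libraries, had 2999.6, 4149 and 3928 RPKM in dPoflbC and 29158, 45142 and 42723 in dPoClrC, with 12658 to 25401 in dCA. It was lower in dPoflbC, with a log2 fold change of -3.68 (SE 0.29, edgeR adjusted p 4.08e-06). The hypothetical protein PDE_07434 had 990.4, 1207 and 1231 RPKM in dPoflbC against 0.757, 1.22 and 2.53 in dPoClrC and a mean of 0.872 in dCA (9.28, SE 0.40, edgeR adjusted p 1.27e-07). A short gene, PDE_02158, had 0 reads in dPoClrC and 1717 reads over the dPoflbC libraries, at least 534-fold above a floor of 3 reads over the strain.

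Genes named as enzymes of carotenoid synthesis, with the locus numbers PDE_08070 to PDE_08072, lay in a run of lower genes at low levels. The phytoene synthase and lycopene cyclase PDE_08071, which makes the first carotenoid and closes its rings, had 4.06, 3.12 and 4.86 RPKM in dPoflbC and 15.3, 22.5 and 20.6 in dPoClrC (-2.56, SE 0.27, edgeR adjusted p 2.57e-05). The neighbouring alkaline phosphatases PDE_04766 and PDE_04767, enzymes that free phosphate, were lower too. PDE_04767 had 84.6, 90.5 and 76.3 RPKM against 579, 664 and 577 (-3.13, SE 0.15, edgeR adjusted p 2.03e-07), and no dPoflbC library was near those of dPoClrC.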
